A study of Homo sapiens with 6 samples.

Results

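The genes of the proteasome were compared between SEM cells expressing wild-type CTCF (CTCF-WT) and cells expressing CTCF without its RNA-binding region (CTCF-dRBR). The members were the protein-coding rows of the gene table whose symbol is PSM followed by a letter from A to G and a number. This rule used no measured value. It found 50 rows with 48 symbols among 57820 rows, of which 20345 are protein-coding. By symbol, 8 genes belong to the alpha ring of the 20S core, 7 to its constitutive beta ring, 4 to the immunoproteasome or thymoproteasome, 6 to the ATPases and 11 to the non-ATPase subunits of the 19S particle, 7 to the assembly chaperones, and 5 are activators or the inhibitor PSMF1.

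The SEM line was derived from a human acute leukemia of the B lineage. In both groups the endogenous CTCF carried a miniAID degron and the mClover3 fluorescent protein, and the cells expressed OsTIR1(F74G), the plant receptor that recruits the SCF ubiquitin ligase to the degron. Both were given the auxin analog 5-Ph-IAA for 24 h in all, and doxycycline at 1 µg/mL for the last 18 h of it to induce an HA-tagged CTCF. That protein was CTCF-dRBR under a TRE3G promoter in 3 libraries and wild-type CTCF in the other 3, for which the sample labels give the group in the title and name only the tagged endogenous gene. The 5-Ph-IAA concentration is given as 1 or 10 µM in the methods, without the value for each assay. The libraries of a group are labelled as replicates, and nothing says that they came from separate cultures, so the p-values measure the spread between these libraries, which may be technical. Because every library came from cells in which CTCF was being removed by the proteasome, no library shows the genes in untreated cells.

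The 26S proteasome degrades proteins tagged with ubiquitin. Its 20S core is a barrel of outer alpha rings, which gate the entry, and inner beta rings, which hold the proteolytic sites, and the 19S particle on top recognizes ubiquitin, removes it and threads the substrate in with a ring of ATPases. Lymphoid cells also make an immunoproteasome, in which interferon-inducible catalytic subunits replace the constitutive ones and alter the peptides offered to MHC class I. Transcription of the subunit genes is raised together by NFE2L1, also called NRF1, which binds antioxidant response elements.

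Libraries held 51732177 to 53166735 counts in CTCF-WT, 48912209 and 50457168 in CTCF-dRBR replicates 2 and 3, and 30034505 in CTCF-dRBR replicate 1. That library stood apart, with a Spearman rho of 0.913 to 0.968 against the other 5 libraries over the genes tested, whereas the other pairs had 0.971 to 0.997. The deviation of a library from the mean of all 6 was related to the GC content of the transcripts, with a rho across 13654 genes of 0.715, 0.682 and 0.333 in CTCF-WT and −0.789, −0.440 and 0.512 in CTCF-dRBR replicates 1 to 3. CTCF itself was measured at 209.9, 211.2 and 248.6 CPM in CTCF-WT and at 272.8, 263.7 and 252.1 CPM in CTCF-dRBR (CPM, counts relative to the library size after TMM normalization), a value that holds endogenous and ectopic RNA together and that the degron, which acts on protein, does not check. The 6 B-lineage markers CD79A, CD79B, PAX5, EBF1, VPREB1 and IGLL1 were detected in every library, with a summed TPM over protein-coding genes of 554 to 650.0 in CTCF-WT and of 355, 649.5 and 798 in CTCF-dRBR. The 4 T cell markers summed to 0.0279 to 0.901, the 2 erythroid markers to at most 0.127, and the 4 monocyte and granulocyte markers to 9.98 to 13.8.

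Promoters of 42 of the 48 symbols were found among the RefSeq windows of GRCh38.p14, which run from 250 bases before to 50 bases after a start, with 51 windows in all. They are shown for members on which the results below turn. PSMB2 and PSMC5 were among the members with the smallest p, PSMB5 holds a catalytic site, PSMA5 has the most matches to the NFE2L1 element, and PSMA4 had the highest fitted fold change. Capitals mark the CCAAT box (CCAAT) and the core of the antioxidant response element (TGACNNNGC or TGAGNNNGC), each searched on both strands, and for a gene with several windows a window with a match is shown.
PSMB2, chr1:35641477-35641776, minus strand: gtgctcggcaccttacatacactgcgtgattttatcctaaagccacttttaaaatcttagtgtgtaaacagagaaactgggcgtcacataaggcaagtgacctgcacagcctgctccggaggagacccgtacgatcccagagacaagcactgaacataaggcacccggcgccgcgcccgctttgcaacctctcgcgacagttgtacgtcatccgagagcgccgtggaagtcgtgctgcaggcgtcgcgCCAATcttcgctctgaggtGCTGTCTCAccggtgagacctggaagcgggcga
PSMB5, chr14:23035171-23035470, minus strand: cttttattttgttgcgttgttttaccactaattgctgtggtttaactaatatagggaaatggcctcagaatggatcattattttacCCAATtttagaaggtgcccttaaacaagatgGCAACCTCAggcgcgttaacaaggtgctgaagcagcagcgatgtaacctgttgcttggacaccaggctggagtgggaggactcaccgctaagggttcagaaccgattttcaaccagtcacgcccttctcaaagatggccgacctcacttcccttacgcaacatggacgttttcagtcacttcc
PSMC5, chr17:63827471-63827770, plus strand: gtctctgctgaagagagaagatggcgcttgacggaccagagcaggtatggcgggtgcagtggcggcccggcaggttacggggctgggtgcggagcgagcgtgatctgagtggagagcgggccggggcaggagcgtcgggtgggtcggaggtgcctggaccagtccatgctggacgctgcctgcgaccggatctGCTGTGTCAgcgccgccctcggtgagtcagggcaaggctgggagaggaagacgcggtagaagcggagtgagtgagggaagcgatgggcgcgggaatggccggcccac
PSMA5, chr1:109426399-109426698, minus strand: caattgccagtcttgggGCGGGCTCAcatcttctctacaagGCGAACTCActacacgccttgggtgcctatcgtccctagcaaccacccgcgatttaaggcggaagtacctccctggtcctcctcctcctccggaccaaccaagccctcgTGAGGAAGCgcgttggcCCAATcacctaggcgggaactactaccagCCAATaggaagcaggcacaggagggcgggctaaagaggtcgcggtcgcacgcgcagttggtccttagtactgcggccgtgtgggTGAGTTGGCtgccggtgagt
PSMA4, chr15:78540536-78540835, plus strand: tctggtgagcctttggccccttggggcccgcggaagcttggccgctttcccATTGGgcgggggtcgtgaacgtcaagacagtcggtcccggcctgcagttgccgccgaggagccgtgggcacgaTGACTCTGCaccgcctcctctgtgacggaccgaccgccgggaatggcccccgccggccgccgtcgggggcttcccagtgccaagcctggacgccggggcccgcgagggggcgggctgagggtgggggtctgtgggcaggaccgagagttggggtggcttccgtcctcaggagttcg
The element core was present in 22 of the 42 genes and in 23 of their 51 windows (45.1%), against 29.1% of all 35116 windows. A CCAAT box was present in 20 of the 51 windows (39.2%), against 34.6% of all. The core of the interferon-stimulated element (GAAANNGAA) was found in 8 windows (15.7%, against 8.11% of all). They belong to PSMB8, PSMB10, PSME1 and PSME2 and also to PSMA4, PSMB4, PSMC2 and PSMG4. PSMB9 had no match. The CTCF core motif was in none of the 51 and in 0.470% of all windows. Both the members called lower after removal of the GC trend (8 of 15 with a window) and the others (14 of 27) held the NFE2L1 core. Those others include PSMA8 and PSMB11, which were not tested, and PSMB3, which was left out of that fit. PSMA4, with a positive fold change, and PSMB2, with a negative one, each had a CCAAT box and the NFE2L1 core. A match says only that these letters are there.

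The proteasome genes were abundant in all libraries. Together they held 0.694%, 0.709% and 0.718% of the TPM of protein-coding genes in the CTCF-WT libraries, and 0.575%, 0.659% and 0.643% in CTCF-dRBR replicates 1 to 3. The 3 shares of CTCF-dRBR were all under the lowest of CTCF-WT. In a bulk sample, less RNA of these genes per cell and fewer cells with it cannot be told apart.

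The genes for the subunits of 1 particle were not at 1 level. On the scale of TPM, which is per transcript length, the 31 constitutive subunits of the core and the 19S particle spanned 12- to 16.8-fold from the lowest to the highest in the CTCF-WT libraries. PSMA7, an alpha subunit, was the highest at 476 ± 9.32 TPM (SD, n = 3), followed by PSMB4 at 324 TPM, PSMA6 at 314, PSMA4 at 306 and PSMA1 at 304. PSMD12, a scaffold subunit of the 19S lid, was the lowest in the 3 CTCF-WT libraries, at 28.7 to 39.4 TPM. In the 3 CTCF-dRBR libraries the lowest was the ATPase PSMC5, at 23.9, 38.5 and 31.4 TPM. The range in those libraries was 21.1-, 10.6- and 13.5-fold.

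**Figure D1:**
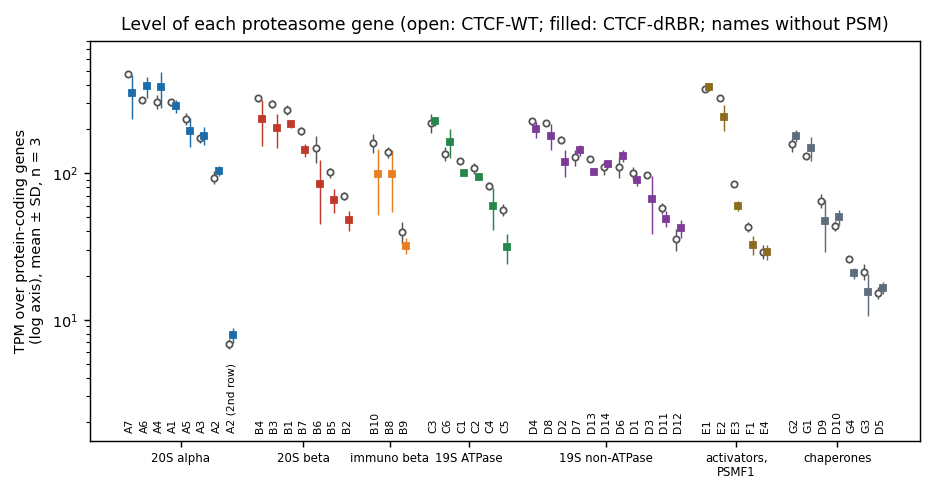
Level of the 47 tested proteasome rows, as mean TPM over protein-coding genes with its SD (n = 3, log axis), in CTCF-WT (open circles) and CTCF-dRBR (filled squares), grouped by role and ordered by the CTCF-WT level. PSMA7 is the highest in CTCF-WT, and the constitutive beta subunits and PSMC5 are lower in CTCF-dRBR, whereas PSMA4 and PSMA6 are not.

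Of the 50 rows, 47 had at least 1 CPM in a library and were tested. The thymus-specific PSMB11 had 1 count in 1 library and none in the others, the testis-specific PSMA8 had at most 5 counts in a library, and a second row named PSMA1, which spans PSMA1 and the neighbouring COPB1 on the same strand, had 1.69 to 16.8 counts. A second row named PSMA2, which overlaps the first, was tested and is counted as a row of its own. Reads could not be divided with certainty between such rows. With PSMA1 and PSMA2 counted, 6 members have a protein-coding gene on the same strand in their span, also PSMA6, PSMB10, PSMC2 and PSMD9. On the opposite strand 14 members have one, among them PSMC5 with FTSJ3 and PSME3 with BECN1, and also PSMC2. The deposited tables are labelled as stranded. Pseudogenes named after these genes took 0.568% to 0.717% of all counts of members and pseudogenes, and 1.18% in CTCF-dRBR replicate 1.

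By limma-voom over 14044 genes, no gene of any kind passed an adjusted p of 0.05 (smallest 0.0959), and so none of the 47 rows did (0% of all genes). At an unadjusted p under 0.05, 24 of the 47 were lower in CTCF-dRBR and 0 were higher. Of all genes tested, 12.8% were lower and 12.6% higher by that rule. The 3 CPM of one group lay apart from those of the other for 27 of the 47, all lower in CTCF-dRBR, against 17.5% of all genes lower and 20% higher. The median log2 fold change of the 47 rows was −0.34, from −1.03 for PSMB10 to 0.21 for PSMA4, with 36 negative and 11 positive. The median of all 14044 genes was −0.0076, with 7112 negative and 6932 positive.

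Single libraries showed the same order. Relative to the mean of the CTCF-WT libraries, the median log2 value of the 47 rows was 0.023, 0.010 and −0.015 in the CTCF-WT libraries and −0.40, −0.34 and −0.27 in CTCF-dRBR replicates 1 to 3. Below that mean were 34, 36 and 46 of the 47 rows in the 3 CTCF-dRBR libraries. The same count was not made over all genes, so these are a description only. CTCF-dRBR replicate 1 had the widest range, from −2.06 to 0.70, and replicate 3 the narrowest, from −0.91 to 0.0062.

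**Figure D2:**
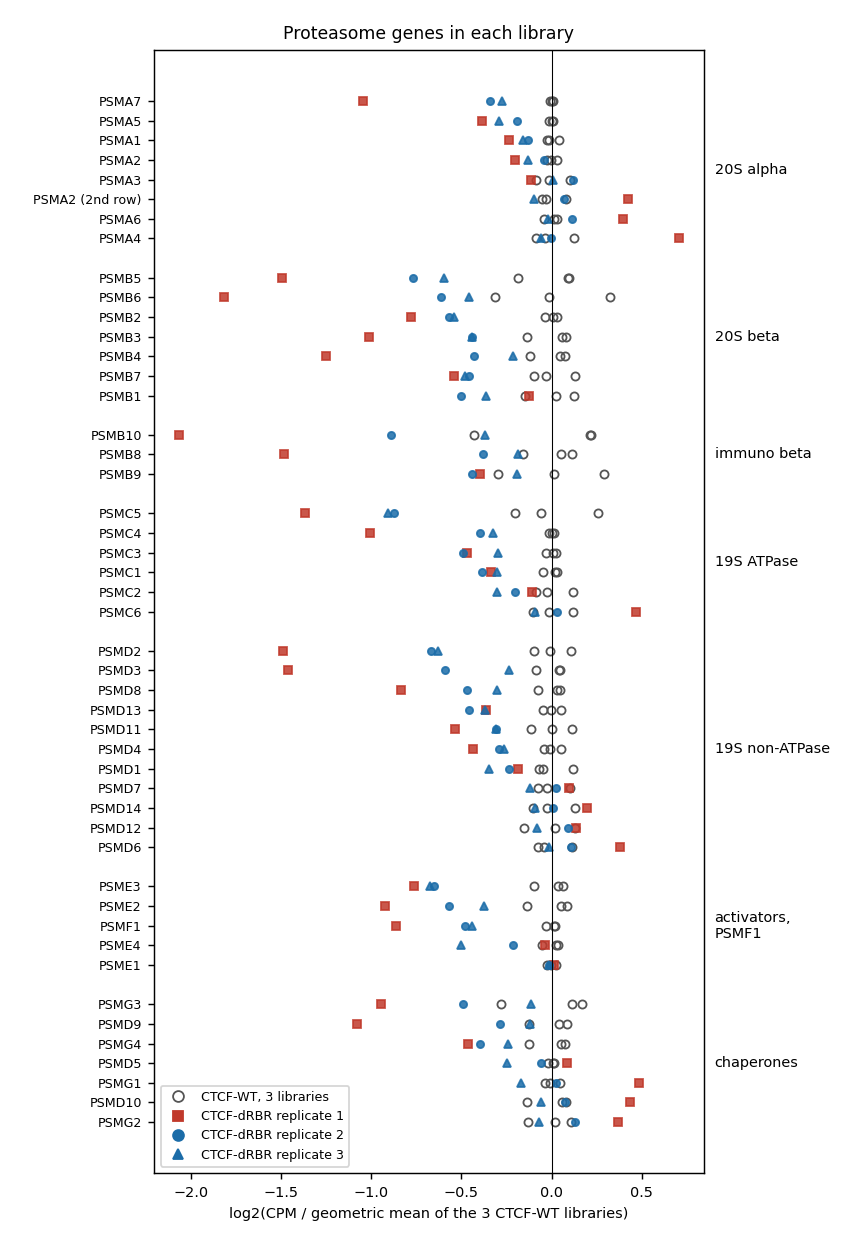
The log2 ratio of CPM to the geometric mean of the 3 CTCF-WT libraries (x axis) for each of the 47 tested rows, grouped by role. CTCF-WT libraries are open circles, CTCF-dRBR replicate 1 a red square, replicate 2 a blue circle and replicate 3 a blue triangle. Replicate 1 reaches −2.06 and 0.70, farther than replicates 2 and 3 in both directions, and 27 rows have all 3 CTCF-dRBR values below all 3 CTCF-WT values.

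Without CTCF-dRBR replicate 1, 8 of the 47 rows passed the adjusted threshold and all 8 were lower. Of the 13731 genes tested in that fit, 2.37% were called lower and 1.52% higher. The 8 were PSMB2, PSMB5 and PSMB7 of the beta ring, PSMC5, PSMD2 and PSMD13 of the 19S particle, the activator PSME3 and the inhibitor PSMF1. The median log2 fold change of the 47 rows was −0.31 there, with 41 negative and 6 positive. Of all genes in that fit, 7042 were negative and 6689 positive. With all 6 libraries, edgeR's quasi-likelihood test called 0 rows and DESeq2 called 16, all lower, against 6.15% of all genes lower and 5.39% higher.

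The roles did not have the same median. For the constitutive beta ring the median log2 fold change was −0.61, with 6 of 7 genes lower at an unadjusted p under 0.05. By that rule 12.8% of all genes were lower and 12.6% higher, which holds beside each count of this paragraph. The 3 tested immunoproteasome subunits had a median of −0.63 (1 of 3 lower), the activators and the inhibitor −0.57 (3 of 5), the 19S ATPases −0.38 (4 of 6) and the 19S non-ATPase subunits −0.33 (7 of 11). The alpha ring had −0.058 (2 of 8 rows) and the assembly chaperones −0.087 (1 of 7). None was higher by that rule in any of these roles. No test compared the roles with each other, and the roles differ in GC content, with which the fold change went (below).

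Among the alpha subunits, PSMA7 was measured at 257.0, 258.9 and 255.4 CPM in CTCF-WT and at 124.7, 202.6 and 212.4 CPM in CTCF-dRBR. The groups were apart, with CTCF-dRBR on the lower side, and replicate 1 was the farthest. The log2 fold change was −0.55 ± 0.21 (SE) and the adjusted p by limma-voom was 0.181. PSMA5 was also lower in each CTCF-dRBR library, with a log2 fold change of −0.29.

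PSMA4 was measured at 189, 196 and 219 CPM in CTCF-WT and at 327, 201 and 193 CPM in CTCF-dRBR. Replicate 1 alone was above the CTCF-WT libraries, and the groups overlapped. Its log2 fold change was 0.21 ± 0.21 (SE, limma-voom adjusted p = 0.499), and −0.035 without that library. PSMA6 had 170, 176 and 178 CPM against 229, 189 and 172 CPM, so that replicates 1 and 2 were above the 3 CTCF-WT values and replicate 3 was inside their range. Its log2 fold change was 0.16 ± 0.12 (SE, limma-voom adjusted p = 0.384), and 0.043 without replicate 1. A gene of the same strand covers nearly all of its span in the annotation, so its counts are uncertain.

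The constitutive catalytic subunits are PSMB5, which cleaves after hydrophobic residues, PSMB6, after acidic ones, and PSMB7, after basic ones. PSMB5 (GRCh37 chr14:23485752-23504439, minus strand) had 67.7, 68.1 and 55.8 CPM in CTCF-WT and 22.5, 37.4 and 42.1 CPM in CTCF-dRBR. PSMB6 had 83.0, 65.7 and 53.4 CPM against 18.8, 43.3 and 48.3 CPM. PSMB7 had 118, 105 and 101 CPM against 73.9, 78.4 and 77.3 CPM. For all 3 genes the groups were apart, and CTCF-dRBR replicate 1 was the lowest library.

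The fitted log2 fold changes were −0.91 ± 0.23 for PSMB5, −0.89 ± 0.35 for PSMB6 and −0.49 ± 0.10 for PSMB7 (SE), with adjusted p of 0.131, 0.187 and 0.108 by limma-voom. That is 53.3%, 53.9% and 71.2% of the CTCF-WT level. Without CTCF-dRBR replicate 1, PSMB5 fell by 0.68 and PSMB7 by 0.47 on the log2 scale, with limma-voom adjusted p of 0.0426 and 0.0483, whereas PSMB6 had −0.54 and 0.118.

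The non-catalytic beta subunits were lower too. PSMB2 (GRCh37 chr1:36065142-36107127, minus strand) had 116, 120 and 122 CPM in CTCF-WT and 69.5, 80.4 and 82 CPM in CTCF-dRBR. The spread inside each group was small beside the gap between them. Its log2 fold change was −0.63 ± 0.099 (SE), or 64.8% of the CTCF-WT level, with an adjusted p of 0.0959 by limma-voom, no higher than that of any other gene. PSMB1, PSMB3 and PSMB4 had −0.34, −0.61 and −0.61, and PSMB1 was the only one of the ring whose groups overlapped.

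The immunoproteasome subunits PSMB8 and PSMB9 lie in the MHC class II region (GRCh37 chr6:32808494-32812456, minus strand, and chr6:32811913-32827628, plus strand). Their annotated spans overlap by 544 bases. PSMB8, the counterpart of PSMB5, had 92, 96 and 79.5 CPM in CTCF-WT and 31.8, 68.2 and 78.0 CPM in CTCF-dRBR. The groups were apart by a small margin, between the 79.5 of CTCF-WT replicate 3 and the 78.0 of CTCF-dRBR replicate 3. PSMB9, the counterpart of PSMB6, had 21.6, 17.8 and 14.4 CPM against 13.4, 13 and 15.5 CPM, and its groups overlapped. PSMB10, the counterpart of PSMB7, had 87.4, 87.3 and 55.8 CPM against 18, 40.6 and 58.2 CPM, with overlap. In the annotation a gene of the same strand covers 1512 of the 2359 bases of its span, so the counts of PSMB10 are uncertain.

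The log2 fold changes of the 3 were −0.63 ± 0.32 for PSMB8, −0.34 ± 0.19 for PSMB9 and −1.03 ± 0.41 for PSMB10 (SE), with limma-voom adjusted p of 0.232, 0.262 and 0.189. PSMB10 has the transcript richest in GC of all tested members, at 61.7%, and its log2 fold change was −0.36 after the GC trend was removed.

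Ratios within a library compare an immunoproteasome subunit with its constitutive counterpart and do not depend on the scaling of the library. PSMB8 over PSMB5, by TPM, was 1.39, 1.38 and 1.37 in CTCF-WT and 0.929, 1.65 and 1.77 in CTCF-dRBR. Replicates 2 and 3 were above CTCF-WT and replicate 1 below by TPM, and the mean difference was 0.018 on the log2 scale (exact permutation p = 1.0). By CPM, with all 6 libraries, it was 0.27 (exact permutation p = 0.3). Without replicate 1 the difference by TPM was 0.31, which is the largest that any split of those 5 libraries gives, and the exact permutation p of 0.1 is the smallest possible there.

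PSMB9 over PSMB6 was 0.255, 0.277 and 0.274 in CTCF-WT and 0.744, 0.301 and 0.325 in CTCF-dRBR. The 3 values of CTCF-dRBR were the higher ones, by 0.64 on the log2 scale on average and by 0.22 without replicate 1. The exact permutation p was 0.1, the smallest that 3 against 3 libraries can give, and 0.3 when adjusted over the 3 pairs. PSMB10 over PSMB7 overlapped between the groups, with a log2 difference of −0.38 by TPM (exact permutation p = 0.5, adjusted 0.75) and of −0.62 by CPM (exact permutation p = 0.3).

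**Figure D3:**
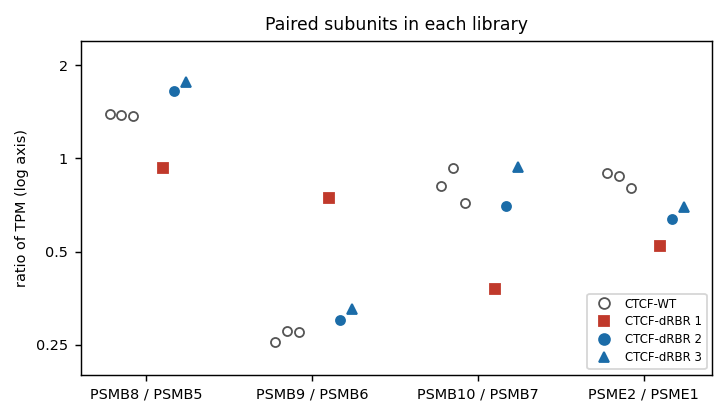
Ratio of TPM within each library (log axis) for the 3 pairs of immunoproteasome and constitutive catalytic subunits and for PSME2 over PSME1. Open circles are CTCF-WT, and filled symbols CTCF-dRBR. Replicate 1 (red square) lies on the other side of CTCF-WT from replicates 2 and 3 for PSMB8 over PSMB5, and PSME2 over PSME1 is lower in all 3 CTCF-dRBR libraries.

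Summed over the genes of a ring, the constitutive beta TPM over the alpha TPM was 0.814, 0.754 and 0.644 in CTCF-WT and 0.416, 0.549 and 0.604 in CTCF-dRBR. The groups did not overlap, with 0.644 as the lowest CTCF-WT and 0.604 as the highest CTCF-dRBR value. Inside each group the ratio had the order of the libraries' rho with GC content. The alpha genes also have a lower median GC content than the constitutive beta genes (below). No test was run on this ratio, and the part of the GC trend in it was not tested. The summed alpha TPM was 1813, 1904 and 2012 against 1842, 1980 and 1866, whereas the summed constitutive beta TPM was 1476, 1436 and 1296 against 767, 1087 and 1127.

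The ATPases of the 19S base unfold the substrate. PSMC5 (GRCh37 chr17:61904512-61909386, plus strand) had 48.7, 39.1 and 35.3 CPM in CTCF-WT and 15.7, 22.2 and 21.7 CPM in CTCF-dRBR. The groups did not overlap, and CTCF-dRBR was at 49.2% of the CTCF-WT level in the fit (log2 fold change −1.02 ± 0.19 SE, limma-voom adjusted p = 0.0991). PSMC3 had 144, 149 and 151 CPM against 107, 105 and 120 CPM, with a log2 fold change of −0.42 ± 0.093 (limma-voom adjusted p = 0.114). By TPM, which also reflects the transcript length that was estimated in each library, PSMC3 was not lower, at 220 ± 32 against 225 ± 14.6 TPM (SD, n = 3).

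PSMC6 had the opposite sign, with 104, 111 and 121 CPM against 155, 114 and 105 CPM and a log2 fold change of 0.13 ± 0.16 (limma-voom adjusted p = 0.588). Replicate 1 alone was above the CTCF-WT range. PSMC1, PSMC2 and PSMC4 had log2 fold changes of −0.34, −0.21 and −0.55, each with no overlap between the groups.

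Of the non-ATPase subunits, PSMD2, the large scaffold of the base that docks ubiquitin receptors and shuttling factors, had 171, 158 and 149 CPM in CTCF-WT and 56.7, 100.1 and 102.9 CPM in CTCF-dRBR, with no overlap. Its log2 fold change was −0.91 ± 0.23 (limma-voom adjusted p = 0.132), and it fell by 0.65 on the log2 scale without replicate 1 (limma-voom adjusted p = 0.0333). PSMD13 of the lid had 100.4, 96.6 and 93.7 CPM against 75.4, 70.6 and 74.9 CPM, a narrow spread in both groups, and a log2 fold change of −0.40 ± 0.087 (limma-voom adjusted p = 0.112). PSMD3, PSMD8 and PSMD11 of the lid and PSMD4, a ubiquitin receptor, had −0.73, −0.52, −0.37 and −0.33, and PSMD1, the other scaffold of the base, had −0.26.

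Other lid genes were near 0. PSMD14, the deubiquitinase of the lid, and PSMD7, its partner, had log2 fold changes of 0.032 and −0.0023. PSMD6 had 89.5, 91.6 and 102 CPM against 122, 101 and 93.2 CPM (log2 fold change 0.15 ± 0.13 SE, limma-voom adjusted p = 0.426), where replicates 2 and 3 lay inside the CTCF-WT range. PSMD12 had 0.044.

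The activators that cap the core in place of the 19S particle differed from each other. PSME1 and PSME2 encode the alpha and beta chains of the interferon-inducible PA28 ring. PSME1 had 203, 206 and 210 CPM in CTCF-WT and 209, 205 and 204 CPM in CTCF-dRBR, which gave a log2 fold change of −0.0051 ± 0.077. PSME2 had 161, 157 and 138 CPM against 79.9, 102 and 117 CPM, a log2 fold change of −0.61 ± 0.16 (limma-voom adjusted p = 0.134). The groups overlapped for PSME1 and were apart for PSME2.

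The ratio of PSME2 to PSME1 by TPM was 0.896, 0.879 and 0.802 in CTCF-WT and 0.522, 0.639 and 0.698 in CTCF-dRBR. It was lower in 3 of 3 CTCF-dRBR libraries, by 0.48 on the log2 scale and by 0.36 without replicate 1 (exact permutation p = 0.1 for each). That is the smallest p possible in either test. The pair is outside the 3 planned pairs of catalytic subunits, and its p was not adjusted. The transcripts have a GC content of 50.9% and 53.2%.

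PSME3, the nuclear PA28 gamma (GRCh37 chr17:40976402-40995777, plus strand), had 103, 101 and 92.2 CPM in CTCF-WT and 58.0, 62.7 and 61.8 CPM in CTCF-dRBR. The 3 CTCF-dRBR libraries lay close together, far below the lowest CTCF-WT value. Its log2 fold change was −0.69 ± 0.094 (limma-voom adjusted p = 0.0959), the smallest unadjusted p among the members, and it was −0.67 without replicate 1. PSMF1, an inhibitor of the core in vitro, had 57.7, 57.9 and 55.9 CPM against 31.5, 41.1 and 42.1 CPM (log2 fold change −0.57 ± 0.13, limma-voom adjusted p = 0.116). PSME4, the activator PA200, had −0.26.

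Among the chaperones, which assemble the alpha ring (PSMG1 to PSMG4) or the base (PSMD5, PSMD9, PSMD10), PSMG2 had 78.1, 86.6 and 92.0 CPM against 110.1, 93.5 and 81.4 CPM, with a log2 fold change of 0.13 ± 0.14 (limma-voom adjusted p = 0.496). PSMD10, also called gankyrin, had 33.9, 38.7 and 39.3 CPM against 50.3, 39.1 and 35.7 CPM, with 0.13 ± 0.15 (limma-voom adjusted p = 0.569). In both, replicate 1 was the highest of the 6 libraries. PSMG3, PSMD9 and PSMG4 had −0.50, −0.45 and −0.36, and PSMG4 was the only one of the 7 with no overlap. The span of PSMD9 is nearly all covered by a gene of the same strand in the annotation, so its counts are uncertain.

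The fold change of a member went with the GC content of its transcript. Across 46 members with a GC value the Spearman rho was −0.74, and across 13654 genes it was −0.68. These values are across genes, which are not independent replicates and share the same 6 libraries. The 23 members of higher GC (48.6% to 61.7%) had a median log2 fold change of −0.55, and the 23 of lower GC (36.4% to 48.4%) had −0.0023. The median GC of the alpha genes was 41.2% and that of the chaperones 42.4%, against 50.9% for the constitutive beta genes.

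The GC trend was then removed from each library by loess over all genes, and the same test was run. Of the 46 members, 43 had a negative log2 fold change, with a median of −0.30 and a range from −0.79 (PSMB2) to 0.24 (PSME1). Of all 13654 genes in that fit, 7042 were negative and 6612 positive. At an unadjusted p under 0.05, 27 were lower and 0 higher, where 17.6% of all genes were lower and 13.8% higher. The adjusted threshold was passed by 16 members, all lower, where 5.71% of all genes were called lower and 4.15% higher. The members of higher and lower GC had medians of −0.33 and −0.26, and rho was 0.031 across the members.

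The 16 members that fell after removal of the trend were 5 of the 6 ATPases (PSMC1, PSMC2, PSMC4, PSMC5, PSMC6), PSMD1, PSMD2 and PSMD11 of the 19S particle, the beta subunits PSMB2, PSMB5 and PSMB7, the activators PSME2, PSME3 and PSME4, the inhibitor PSMF1 and the chaperone PSMD5. PSMC6 is one whose sign turned, from 0.13 to −0.23 (limma-voom adjusted p = 0.0422). PSMC3, the remaining ATPase, moved to −0.0049 and PSMD4 to −0.072. The alpha ring had a median of −0.26, with 8 of 8 negative and 0 past the threshold. In the constitutive beta ring the values were −0.36 (PSMB1), −0.79 (PSMB2), −0.43 (PSMB4), −0.72 (PSMB5), −0.60 (PSMB6) and −0.43 (PSMB7). The difference between the rings was not tested. PSMB3 had no GC value and was left out of this fit.

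With the trend removed and CTCF-dRBR replicate 1 left out, 24 of the 46 members passed, all lower, against 14.3% of all genes lower and 11% higher. The median was −0.23 and 45 of 46 were negative, PSME1 with 0.089 being the exception. Of all 13360 genes in that fit, 6787 were negative and 6573 positive. What made the libraries differ by GC content was not tested. The rho with GC content was −0.789 and −0.440 in CTCF-dRBR replicates 1 and 2. In replicate 3 it was 0.512, inside the CTCF-WT range of 0.333 to 0.715. The trend thus differs in part between the groups. Its part and that of CTCF-dRBR cannot be told apart for a single gene.

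**Figure D4:**
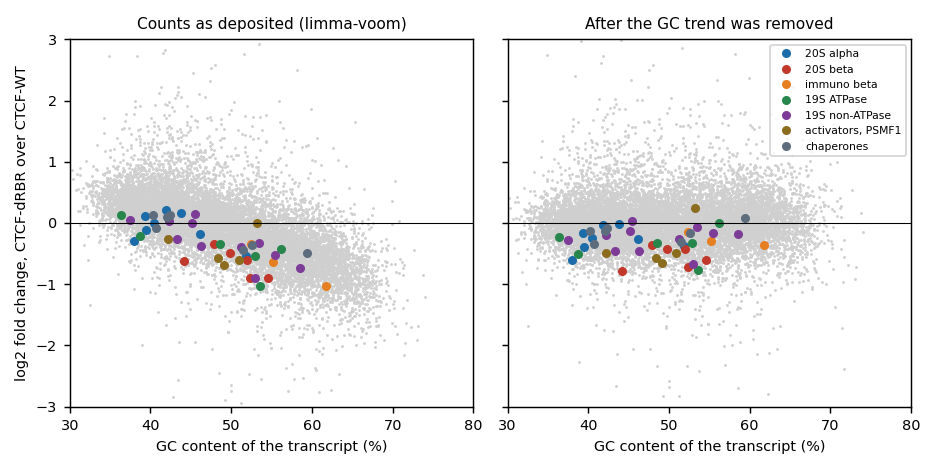
Log2 fold change of CTCF-dRBR over CTCF-WT (y axis, −3 to 3) against the GC content of the transcript in percent, for all genes with a GC value (grey) and 46 proteasome genes (colors by role), as deposited (left) and after removal of the GC trend (right). The members follow the slope of all genes on the left (rho −0.74 and −0.68) and lie mostly below 0 on the right, 43 of 46 of them.

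**Figure D5:**
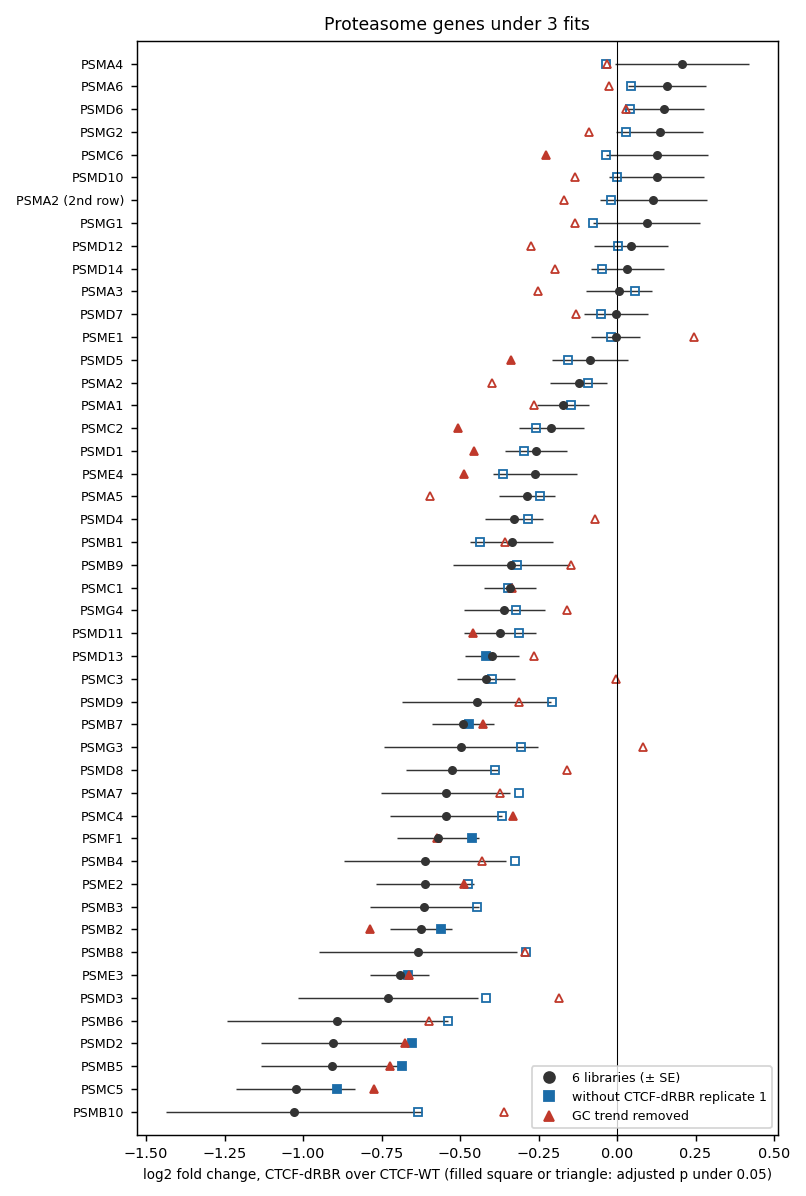
Log2 fold change of the 47 tested rows with all 6 libraries (black, with SE), without CTCF-dRBR replicate 1 (blue squares) and after removal of the GC trend (red triangles, 46 genes). Filled squares and triangles passed the adjusted threshold, 8 and 16 of them, and all lie left of 0.

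The other genes of the pathway were taken from 5 lists with 41 genes, all tested. At an unadjusted p under 0.05, 10 were lower and 2 higher, beside 12.8% of all genes lower and 12.6% higher, none passed the adjusted threshold, and the median log2 fold change was −0.17. The counts of the single lists are a description beside the same shares, and nothing is read from them. Of 10 genes that assemble or attach to the proteasome, 2 were lower by that rule and 0 higher, beside the same 12.8% and 12.6% of all genes. They were ADRM1, a ubiquitin receptor of the 19S particle, at −1.0 ± 0.24 (SE), and POMP, the maturation factor of the beta ring, at −0.40 ± 0.16. After removal of the GC trend, ADRM1 had −0.23 and POMP fell by 0.69 (limma-voom adjusted p = 0.0250).

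Of 6 genes that control the transcription of proteasome genes, 3 were lower and 1 higher at an unadjusted p under 0.05, beside 12.8% and 12.6% of all genes. NFE2L1 had 107, 103 and 95.0 CPM in CTCF-WT and 58.1, 69.5 and 79.3 CPM in CTCF-dRBR. The groups were apart, with a log2 fold change of −0.56 ± 0.13 (limma-voom adjusted p = 0.123) and of −0.23 after removal of the GC trend. By TPM over protein-coding genes NFE2L1 was not lower, at 53.3 ± 11.4 in CTCF-WT against 60.4 ± 10.2 in CTCF-dRBR (SD, n = 3). DDI2, the protease that releases NFE2L1 from the membrane, had −0.29, and NGLY1, the glycanase that also processes it, had 0.41 ± 0.12 (limma-voom adjusted p = 0.148).

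Of 14 genes for ubiquitin and its shuttling, 4 were lower and 0 higher by the same rule, beside 12.8% and 12.6% of all genes, with a median log2 fold change of −0.35. Listed for the SCF ligase that the degron uses were 5 genes, SKP1, CUL1, RBX1 and the ubiquitin-conjugating enzymes CDC34 and UBE2R2. Of these, 0 were lower and 0 higher, beside the same shares of all genes. Their median was 0.021, from −0.79 (CDC34) to 0.18 (CUL1). Among 6 neighbours and regulators of the immunoproteasome, TAP2 was lower (log2 fold change −0.50 ± 0.20) and IRF2 higher (0.43 ± 0.17), with limma-voom adjusted p of 0.188 and 0.184. TAP1, which lies inside the annotated span of PSMB9 on the other strand, had 19.2, 21 and 18 CPM against 10.3, 20.1 and 23.5 CPM, with overlap.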

How the data were processed

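Total RNA of 6 libraries (3 CTCF-WT and 3 CTCF-dRBR, by the sample titles) was depleted of rRNA. The authors trimmed the reads with Trim Galore 0.6.3, aligned them with STAR 2.7.9a to hg19 (GRCh37) and quantified Gencode genes with RSEM 1.3.1. The labels give single-end and the methods paired-end reads. The deposited tables hold expected counts per gene, which are estimated and not normalized, and TPM, for which the authors divided by effective length and scaled each library to an equal sum. TPM printed here were rescaled to 1000000 over protein-coding genes.

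Expected counts of genes with at least 1 CPM in any library (14044 of 57820) were normalized by TMM in edgeR 4.0.16 and compared by limma-voom (limma 3.58.1, R 4.3.3), two-sided, without covariates, as in the study's methods. Benjamini-Hochberg adjustment was made over every gene of a fit, and 0.05 was the threshold. Rounded counts entered edgeR and DESeq2 1.42.0. Ratios within libraries were compared by exact permutation tests. GC content was that of the longest protein-coding transcript of a Gencode annotation lifted to GRCh37, known for 97.2% of genes in the fit. To remove the trend, each library's deviation from the mean log2 CPM (prior count 1) was fitted by loess (span 0.5, degree 2) over GC and subtracted. The alternatives were other normalizations, filters, tools and scales, leaving out each library, the replicate block, and GC or length correction.

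Named genes were the catalytic subunits, PSME1, PSME2, PSMF1 and, in each direction, the 6 members with the smallest unadjusted p, given per library. Other members are given by fold change. PSMA7, PSMD2, NFE2L1 and TAP1 were added per library after their values were seen. The members and lists were chosen with earlier results of these data known. Depth was 30034505 to 53166735 counts per library. ChIP-seq, ATAC-seq and other RNA-seq were not analysed here. Of the listed B-lineage markers, 1 is not reported here.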

Additional observations from a re-analysis of the deposited data

How the results depend on the processing

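Leaving out 1 library at a time gave 0 to 535 genes past the adjusted threshold by limma-voom, 0 to 8 members, 14 to 28 members at an unadjusted p under 0.05, a median log2 fold change of the members of −0.41 to −0.31, and 0 to 1 other ubiquitin-proteasome genes past the threshold. The highest numbers of calls came without CTCF-dRBR replicate 1, and the 14 without CTCF-WT replicate 1. At an unadjusted p under 0.05, 2278 of all 13731 genes were lower and 1893 higher without CTCF-dRBR replicate 1. Without CTCF-WT replicate 1, 807 of 14008 were lower and 618 higher. The log2 difference of PSMB8 over PSMB5 was −0.15 to 0.31, that of PSMB9 over PSMB6 0.22 to 0.87, and that of PSMB10 over PSMB7 −0.67 to −0.01. The replicate numbers were not taken as pairs in the main fit. Same-numbered libraries had correlations of −0.47, 0.14 and −0.60 in their deviations, and no library correlated best with its own number. These deviations also hold the GC trend of each library, so the correlations cannot exclude a pairing. With the replicate block, 14 members had an unadjusted p under 0.05 and 0 passed the adjusted threshold. Of all 14044 genes, 779 were lower and 644 higher at that unadjusted p.

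Genes, members and other ubiquitin-proteasome genes past the adjusted threshold were 1619, 16 and 4 with DESeq2, 9583, 34 and 30 with voomWithQualityWeights (weights of 0.0969 for CTCF-dRBR replicate 1 and 6.19 for replicate 2, and with 32 of the members lower and 2 higher), 1345, 16 and 6 with the GC trend removed, and 3381, 24 and 17 with the GC trend removed and CTCF-dRBR replicate 1 left out. The median of the members was −0.27 without normalization factors, −0.42 with every gene with a count, −0.22 with the length trend removed, and −0.23 with the GC trend removed and replicate 1 left out. On log2(deposited TPM + 1), where the median of all genes moved by 0.40, it was 0.17, with 833 genes past the threshold, 0 members at an unadjusted p under 0.05 and 0 without overlap. Of all 14044 genes on that scale, 283 were lower and 3765 higher at that unadjusted p. Without overlap, 317 of all genes were lower and 1833 higher. On TPM over protein-coding genes with a pseudocount of 1 or 0.1, 12 members had an unadjusted p under 0.05. With the pseudocount of 1, 943 of all 14044 genes were lower and 2545 higher by that rule. Protein-coding genes held 30.25%, 35.83% and 52.44% of the deposited TPM in CTCF-WT and 63.24%, 54.47% and 43.5% in CTCF-dRBR replicates 1 to 3. The cause of the shifts between these scales was not tested. PSMA8, PSMB11 and the second PSMA1 row, which had at most 16.8 counts, were not among the 47 rows tested and entered only the fit on every gene with a count, whose median includes them.

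Across 21 alternatives, 14 of the 47 rows kept their direction in all and 33 turned in at least 1. On log2(deposited TPM + 1) the log2 fold change turned positive for PSMC1 (0.21), PSMC2 (0.25), PSMC3 (0.50), PSMD1 (0.31), PSMD4 (0.28), PSMD5 (0.50), PSMD7 (0.63), PSMD8 (0.14), PSMD11 (0.22), PSMD13 (0.17), PSMA1 (0.38), PSMA2 (0.60), PSMA5 (0.16), PSMB1 (0.14), PSMB7 (0.021), PSMB9 (0.16), PSME1 (0.50), PSME2 (0.026), PSME4 (0.42), PSMF1 (0.039) and PSMG4 (0.13), all but 6 of them under the shift of all genes. With the GC trend removed it turned for PSMC6 (−0.23), PSMD10 (−0.13), PSMD12 (−0.27), PSMD14 (−0.20), the second PSMA2 row (−0.17), PSMA3 (−0.25), PSMA4 (−0.031), PSMA6 (−0.025), PSMG1 (−0.14), PSMG2 (−0.090), PSME1 (0.24) and PSMG3 (0.083). With replicate 1 also left out it turned for PSMC6 (−0.22), PSMD6 (−0.026), PSMD10 (−0.14), PSMD12 (−0.17), PSMD14 (−0.16), the second PSMA2 row (−0.17), PSMA3 (−0.077), PSMA4 (−0.15), PSMA6 (−0.052), PSMG1 (−0.19), PSMG2 (−0.088) and PSME1 (0.089). With the length trend removed it turned for PSMA1 (0.056), PSMA2 (0.10), PSMD7 (0.22) and PSME1 (0.22). On TPM over protein-coding genes with a pseudocount of 1 and of 0.1 it turned for PSMC3 (0.038 in both), PSMA2 (0.15 in both), PSMD5 (0.11 in both), PSMD7 (0.17 in both) and PSME1 (0.040 in both).

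Near 0, PSMD7 turned with RLE normalization (0.0029), no normalization factors (0.073), edgeR's quasi-likelihood test (0.0017), DESeq2 (0.0073), voomWithQualityWeights (0.072) and protein-coding genes only (0.021), PSME1 with no normalization factors (0.069), DESeq2 (0.00039) and protein-coding genes only (0.018), and PSMD12 (−0.036), PSMD14 (−0.055) and PSMA3 (−0.072) with every gene with a count. With single libraries left out, the range crossed 0 for PSMC6 (−0.036 to 0.24), PSMD12 (−0.032 to 0.11), PSMD14 (−0.047 to 0.099), PSMD7 (−0.052 to 0.059), the second PSMA2 row (−0.021 to 0.23), PSMA3 (−0.051 to 0.059), PSMA4 (−0.035 to 0.35), PSME1 (−0.027 to 0.0079), PSMD5 (−0.16 to 0.0029) and PSMG1 (−0.076 to 0.24).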
